A study of Mus musculus with 12 samples.

Results

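The EGR family of zinc-finger transcription factors (Egr1, Egr2, Egr3 and Egr4) and the NAB corepressors that bind them (Nab1 and Nab2) are described here in B16F10 cells, a mouse melanoma line. These 6 genes were chosen by name and not by a cut on their levels, out of 54232 genes in the deposited table. Earlier results of these data were known at the choice. The study itself reported higher EGR1 expression in the Lyso and Tumor cells than in WT. The RNA of 12 libraries was sequenced in 4 groups of 3. All groups are labelled B16F10, and the labels name no engineered allele in any group. WT cells were untreated and grown in culture. The Relapsed group holds the lines ITF1, ITM and Rel, each of them 1 library, which were grown to confluency after sorting from tumors that came back after immunotherapy in C57BL/6 mice. Lyso cells were incubated with lysosomal granules derived from T cells, for 48 h according to the labels and 4 h according to the methods, on plates with low adherence after 3 h of settling. Tumor cells were sorted from such tumors and their RNA was taken without culture. The labels call these tumors relapsed, while the study's text places the sort at day 5 after immunotherapy. The mice were 6 weeks old according to the labels and 8 to 12 weeks according to the methods. Tumor cells went straight from dissociation and sorting to RNA, while the cells of the other groups were in culture, so tumor growth and cell handling cannot be told apart in any comparison of Tumor with cultured cells. The methods name the low-adherence plates for the granule incubation only and describe no untreated cells on them. Granules and plating therefore cannot be told apart in comparisons of Lyso with the other groups.

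EGR genes are immediate early genes. Growth factors, calcium, stress or antigen receptors act through ERK kinases on SRF and its ETS-type partners, which sit at CArG boxes in EGR promoters and switch the genes on within minutes, without new protein synthesis. The EGR proteins then bind GC-rich sites and activate their targets, NAB2 among them. NAB proteins have no DNA-binding domain of their own. They dock on an inhibitory region of EGR1, EGR2 and EGR3, which EGR4 lacks, and recruit the NuRD complex, so that NAB2 made after EGR1 closes a negative feedback loop. In T cells EGR2 and EGR3 restrain activation, and in Schwann cells EGR2 with NAB proteins drives myelination.

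In the GENCODE annotation of GRCm38, Egr2 lies at chr10:67535475-67542188 and Egr3 at chr14:70077203-70082614, both on the plus strand. Egr4 lies at chr6:85511121-85513589, Nab1 at chr1:52457294-52500679 and Nab2 at chr10:127660918-127668568, all on the minus strand. The RefSeq promoter table (GRCm38.p6) held 4 of the 6 genes, namely Egr2, Egr4, Nab1 and Nab2. The 250 bases before each start were searched on both strands for the letters of EGR sites (GCGTGGGCG and GCGGGGGCG) and for the CArG box. Egr2 carried a CArG box in 4 of its 5 annotated start windows, 3 of which overlap and share the same box, and 1.47% of all 32851 windows held one. The window before the start at 67537869 is shown, on the plus strand and within an intron of the longer Egr2 transcripts, because it holds the SRF-type letters of an immediate early promoter. Capitals mark the CArG box.
Egr2, chr10:67537619-67537868: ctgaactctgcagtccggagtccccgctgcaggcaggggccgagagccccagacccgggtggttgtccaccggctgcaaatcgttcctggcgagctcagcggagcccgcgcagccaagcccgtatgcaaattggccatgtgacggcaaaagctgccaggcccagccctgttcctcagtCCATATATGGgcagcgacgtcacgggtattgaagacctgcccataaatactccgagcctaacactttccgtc

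The same window of Nab1 held 3 matches to EGR sites, 2 of them to GCGTGGGCG, which 0.536% of all windows held, and 1 to GCGGGGGCG, which 2.57% held. Each match is shown in capitals with 10 bases on either side, read along the minus strand of chromosome 1. The match farthest from the start is the reverse complement of GCGTGGGCG.
Nab1, chr1:52500571-52500599: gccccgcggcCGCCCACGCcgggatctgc
Nab1, chr1:52500539-52500567: actcggccgcGCGTGGGCGggagccggag
Nab1, chr1:52500468-52500496: gcggggcgggGCGGGGGCGgcggaggtgg
These letters describe the windows and are not evidence of binding. The annotated windows of Egr4 and Nab2 held neither EGR letters nor a CArG box. The only Nab2 window, before the RefSeq start at 127666703, lies inside the GENCODE span of the gene. The bases before the GENCODE start of Nab2 were not searched. In another Egr2 window, before the start at 67537566, ETS-type letters (CCGGAA, in 12% of all windows) occurred together with a further CArG box. The CREB-type letters TGACG (17.8% of all windows) occurred in windows of Egr2, Egr4 and Nab1, and the STAT-type letters TTCNNNGAA (7.02%) in none of the members' windows.

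Depth differed between groups. WT 1, WT 2 and WT 3 had 1667398, 2350129 and 16384021 counts on genes, the Relapsed lines 12749399 to 16402629, Lyso 10895611 to 12675277 and Tumor 3102442 to 5049496. Levels are given as CPM, a unit in which TMM scaling sets the libraries to comparable depth, and 3 counts, the floor used here, are 1.80 CPM in the shallow WT 1 but 0.183 CPM in the deep WT 3. Gene expression was compared with edgeR's quasi-likelihood test in 1 fit of all 12 libraries over 14924 genes, and a gene was called at a Benjamini-Hochberg adjusted p under 0.05 with an absolute log2 fold change over 1. Nothing in the labels says that the libraries of a group came from separate cultures or animals, so p-values measure only the spread between libraries, which may be technical. The melanocyte markers were all present, with summed levels between 19810 and 37434 CPM. Against WT 0 of 10 were called by edgeR in any group, and 4, 4 and 1 had an unadjusted edgeR p under 0.05 in Tumor, Lyso and Relapsed. Over all genes tested 10.8%, 3% and 0.0402% were called in these groups.

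Egr1, the most abundant EGR gene in every library and the classic sensor of growth-factor signalling, separated WT, Lyso and Tumor. It lies at chr18:34859823-34864984 on the plus strand. Its level was 2.83, 4.22 and 3.24 CPM in the WT libraries, on 5, 10 and 55 counts. Lyso libraries held 81.7, 54.3 and 56.0 CPM. Tumor libraries held 261, 240 and 286 CPM. Every Lyso library therefore stood above every WT library, and every Tumor library above every Lyso library, as was the case for 28% of all genes tested in the latter comparison. The fitted log2 fold change was 4.24 ± 0.72 (SE) in Lyso against WT, with an adjusted p of 0.00496 in edgeR's quasi-likelihood test. For Tumor against WT it was 6.28 ± 0.74, with an adjusted p of 9.54e-05 in the same edgeR test. Both comparisons share the 3 WT libraries. The direct comparison of Tumor with Lyso gave 2.04 ± 0.53, with an edgeR adjusted p of 0.0140, which rose to 0.0578 without Lyso 2 and to 0.0590 without Lyso 3.

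Egr2, which drives Schwann cell myelination and restrains T cells, was near the detection floor in culture. The WT libraries held 2, 0 and 2 counts, none of them above 3. Lyso libraries held 36, 33 and 37 counts, or 3.39, 3.07 and 2.996 CPM. Tumor libraries held 64, 56 and 43 counts, or 20.8, 11.3 and 10.1 CPM. All Lyso and Tumor libraries were above the WT libraries. With 4 WT counts in all, the size of the rise was uncertain. Tumor was higher than WT 69.9-fold in pooled counts, with an exact 95% counting interval of 26.8 to 260, and Lyso 16.6-fold, with an interval of 6.29 to 62.0. These intervals cover counting error only. The edgeR adjusted p was 0.000171 for Tumor and 0.0160 for Lyso. The Lyso call was lost without WT 3 (edgeR adjusted p 0.227) and without Lyso 1 (0.0525), and the Tumor call was kept without each library in turn. The fitted log2 fold change in Tumor was 6.00, and went to 6.92 without WT 1 and 4.79 without WT 3. In Lyso it was 3.87, and went to 4.79 without WT 1 and 2.66 without WT 3.

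Egr3, a close relative that acts with Egr2 in T cells, gave 0, 0 and 4 counts in WT. The Lyso libraries held 9, 5 and 12 counts, or 0.849, 0.466 and 0.972 CPM. The Tumor libraries held 41, 26 and 33 counts, or 13.3, 5.23 and 7.77 CPM. Egr3 rose in Tumor against WT (edgeR adjusted p 9.32e-05), 42.9-fold in pooled counts with a counting interval of 16.2 to 161. In Lyso the pooled ratio to WT was 4.07, with a counting interval of 1.41 to 16.05, and did not pass the test (edgeR adjusted p 0.169). The counts of 0 in WT 1 and WT 2 allow up to 1.80 and 1.28 CPM, above every Lyso value, so Lyso is not shown to lie above those libraries. All 4 WT counts were in WT 3, and without it the fitted log2 fold change went from 5.47 to 9.21 in Tumor and from 2.01 to 5.76 in Lyso, against libraries at 0. Tumor exceeded Lyso in Egr3 by 3.46 ± 0.45 on the log2 scale (edgeR adjusted p 0.000145). In Egr2 the same difference was 2.13 ± 0.46 (edgeR adjusted p 0.00436). Both genes passed the expression filter only through groups in which they were high, so these calls are given as a description.

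Egr4, the member without a NAB docking region, failed the expression filter and was not in the fit of 14924 genes. It gave 0 counts in all WT and Lyso libraries, 1 count in ITF1 and 2, 1 and 4 counts in the Tumor libraries. Only Tumor 4 passed the floor of 3 counts. The 7 pooled Tumor counts against 0 in WT gave an exact 95% lower counting limit of 2.47 for the ratio, which rests mostly on the depth of WT 3. A count of 0 in the shallow WT 1 allows up to 1.80 CPM, above every Tumor value of Egr4, whose highest was 0.942 CPM. Without the filter, edgeR called Egr4 higher in Tumor than in WT (adjusted p 0.0331), Lyso (0.00638) and the Relapsed lines (0.0181), and DESeq2 called it in none of them (unadjusted p 0.121, 0.0280 and 0.0496).

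Nab1 stayed within a narrow range while the EGR genes moved. It was 104, 98.0 and 90.9 CPM in WT, 103, 111 and 106 CPM in Lyso and 79.3, 85.9 and 91.6 CPM in Tumor. The WT values overlapped those of Lyso and of Tumor. Lyso differed from WT by 0.13 on the log2 scale, with a 95% interval of -0.09 to 0.36, and Tumor by -0.18, with an interval of -0.41 to 0.04. Nab1 was called in neither (edgeR adjusted p 0.549 and 0.254). Tumor was below Lyso by a log2 difference of -0.32 (edgeR adjusted p 0.0405), which is under the fold minimum. Nab1, whose window holds the EGR-site letters shown above, differed by less than the fold minimum in all 6 comparisons.

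Nab2, the inducible corepressor of the EGR feedback loop, gave 24.9, 22.8 and 22.1 CPM in WT. Lyso libraries held 54.0, 49.3 and 46.7 CPM. Tumor libraries held 33.8, 28.2 and 37.7 CPM. The order of the 3 groups thus differed from that of Egr1, with Lyso highest in Nab2 and Tumor highest in Egr1. Nab2 rose in Lyso against WT by 1.12 ± 0.22 on the log2 scale, with an edgeR adjusted p of 0.0102 that became 0.0513 without WT 3. In Tumor the log2 difference from WT was 0.53, with a 95% interval of 0.04 to 1.01, and did not pass (edgeR adjusted p 0.124), although every Tumor library was above every WT library. The Tumor libraries were all below the Lyso libraries, by a log2 difference of -0.59 ± 0.21 that did not pass the test (edgeR adjusted p 0.0544). Of all genes tested, 26.8% lay below Lyso without overlap in that way.

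Nab2 shares bases with genes on the opposite strand, 1050 exonic bases with the antisense gene Gm16229, 151 with Nemp1 and 40 with Stat6. No strand setting was given in the sources used here, and without one the reads of Nab2 and Gm16229 in the shared bases cannot be told apart. Gm16229 differed from WT by 1.09 (log2) in Lyso and by 0.52 in Tumor, close to the values of Nab2. Its Lyso difference was called (edgeR adjusted p 0.0255). Stat6 and Nemp1 were called in neither comparison.

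**Figure D1:**
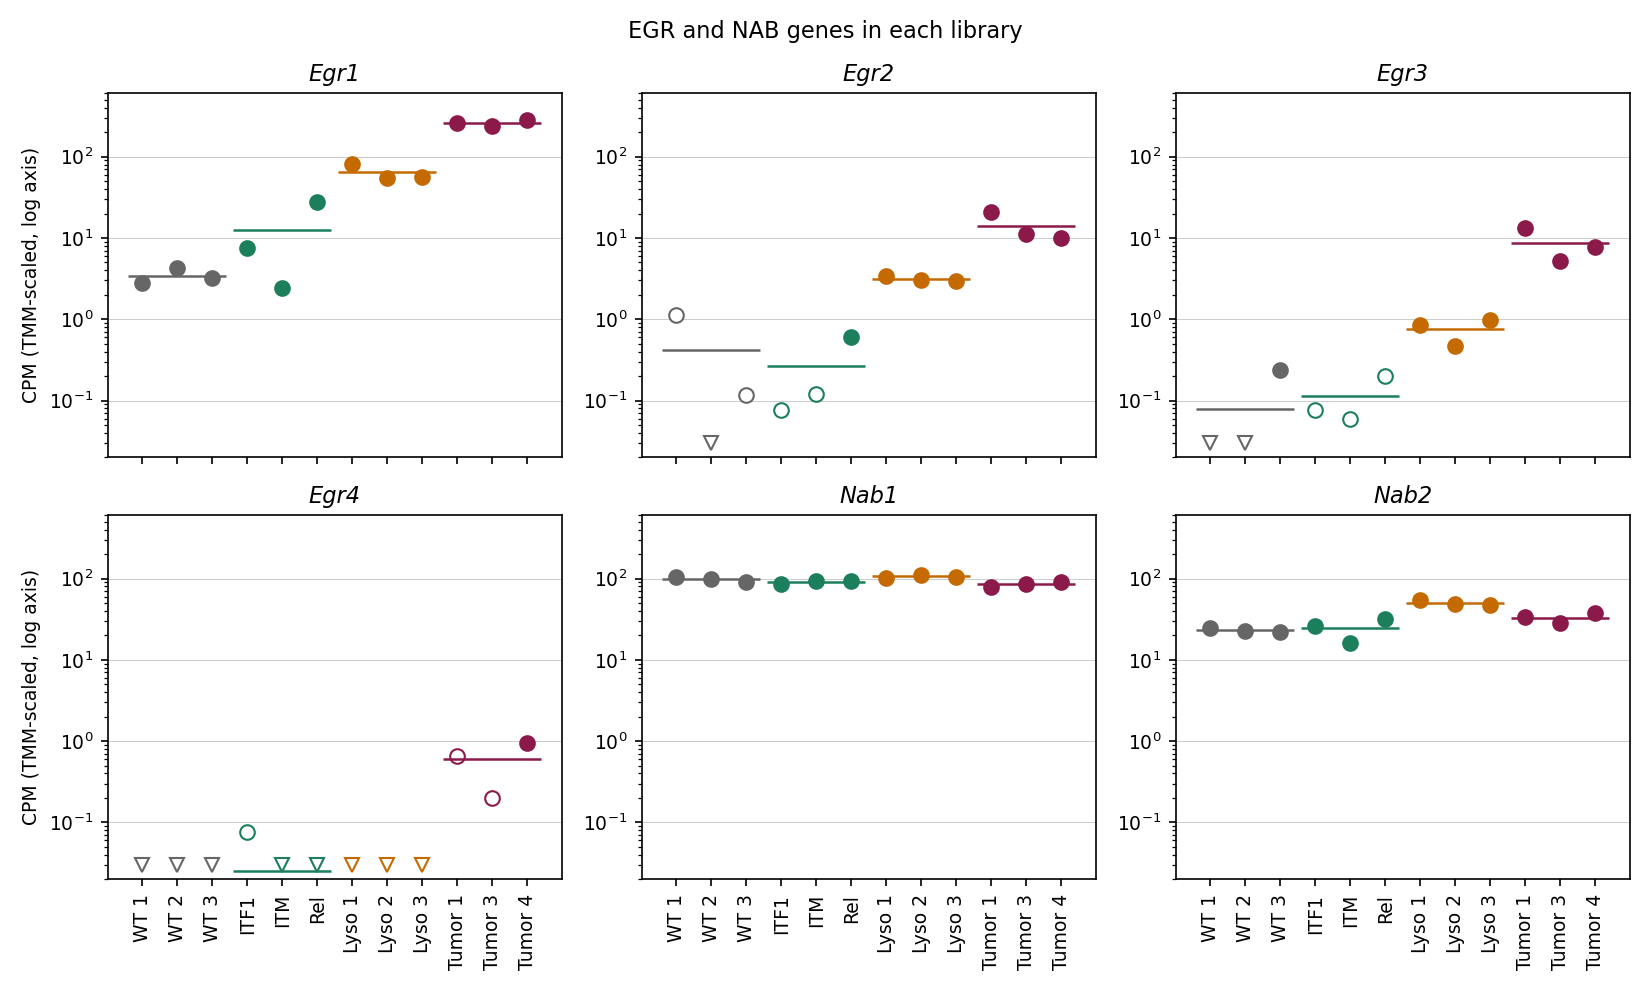
Level of each EGR and NAB gene in the 12 libraries, in TMM-scaled CPM on a log axis shared by all panels. Points are libraries, horizontal lines are group means, open circles mark 3 counts or fewer, and open triangles at the bottom mark 0 counts. In Egr1 and Egr2 every Lyso library lies above WT, in Egr1, Egr2 and Egr3 every Tumor library lies above Lyso, Nab1 spans a narrow range and Nab2 is highest in Lyso.

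Of the 5 members tested, 3 were called higher in Tumor against WT (Egr1, Egr2 and Egr3) and 3 in Lyso against WT (Egr1, Egr2 and Nab2). Of all genes tested, 8.56% were called higher in Tumor and 2.43% in Lyso, with 10.8% and 3% called in either direction. The median log2 fold change of the 3 tested EGR genes was 6.00 in Tumor and 3.87 in Lyso. Over all genes tested the medians were 0.0014 and -0.0048. Egr3 passed the expression filter through Tumor and Egr2 through Lyso and Tumor, while Egr4 failed it. The EGR calls and medians thus rest partly on genes admitted because they were high in these groups. They are given as a description only. Egr1, Egr2 and Nab2 stood above WT without overlap in both comparisons and Egr3 in Tumor. Over all genes 21% did so in Tumor and 15.8% in Lyso. Tumor against Lyso gave 3 calls, all EGR genes and all higher in Tumor, where 8.78% of genes tested were called higher.

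**Figure D2:**
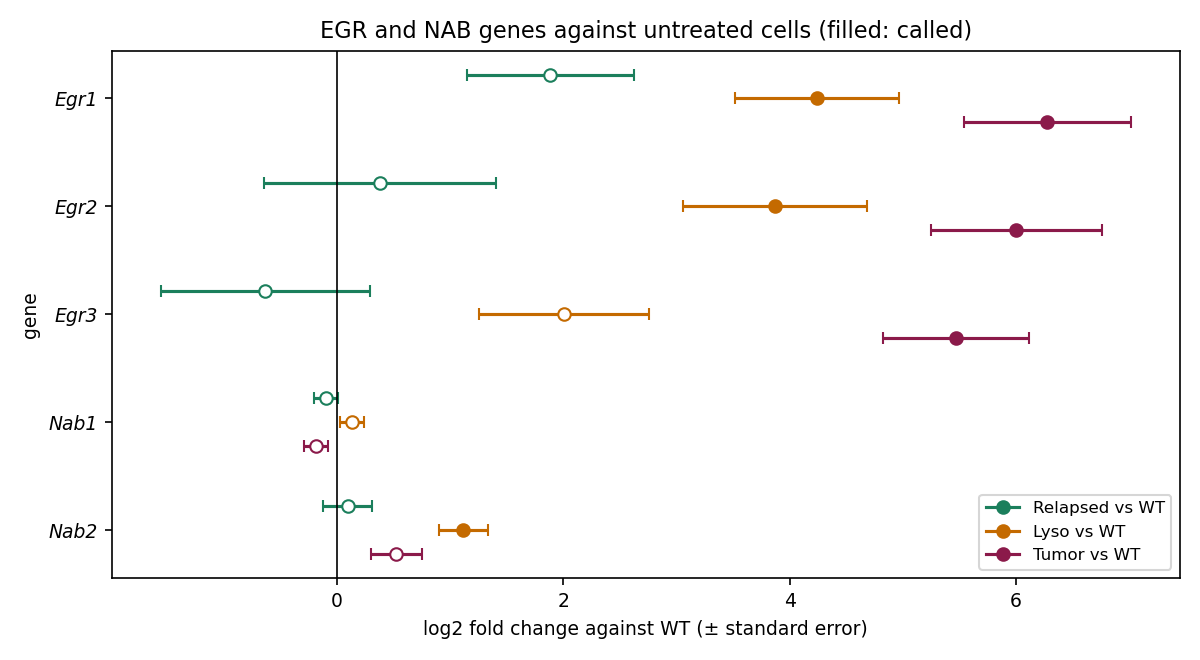
Fitted log2 fold change of the 5 tested members against WT, on a linear axis, with bars of 1 standard error. Filled points passed the test and the fold minimum. Egr1 and Egr2 are filled in Lyso and Tumor, Egr3 only in Tumor, Nab2 only in Lyso, and no point is filled for the Relapsed lines.

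To compare the activators with their corepressors, levels were divided by exon length (CPM per kb of annotated exon) and summed. The EGR sum was 0.812 to 0.964 CPM per kb in WT, 13.1 to 19.4 in Lyso and 58.1 to 69.0 in Tumor. The NAB sum was 29.7 to 33.9, 41.7 to 43.9 and 30.5 to 35.1 CPM per kb in the same groups. The ratio of EGR to NAB was 0.0274 to 0.0298 in WT, 0.299 to 0.447 in Lyso and 1.90 to 2.20 in Tumor, so that the EGR sum exceeded the NAB sum in the Tumor libraries and in no other library. The log2 ratio differed from WT by 3.63 in Lyso and by 6.14 in Tumor, each with an exact two-sided permutation p of 0.1, the smallest that 3 against 3 libraries can give. Egr1 made up 86.0% to 92.5% of the EGR sum in Tumor and 91.9% to 93.9% in Lyso. Nab2 made up 24.5% to 25.3% of the NAB sum in WT, 38.1% to 42.3% in Lyso and 31.4% to 37.3% in Tumor.

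**Figure D3:**
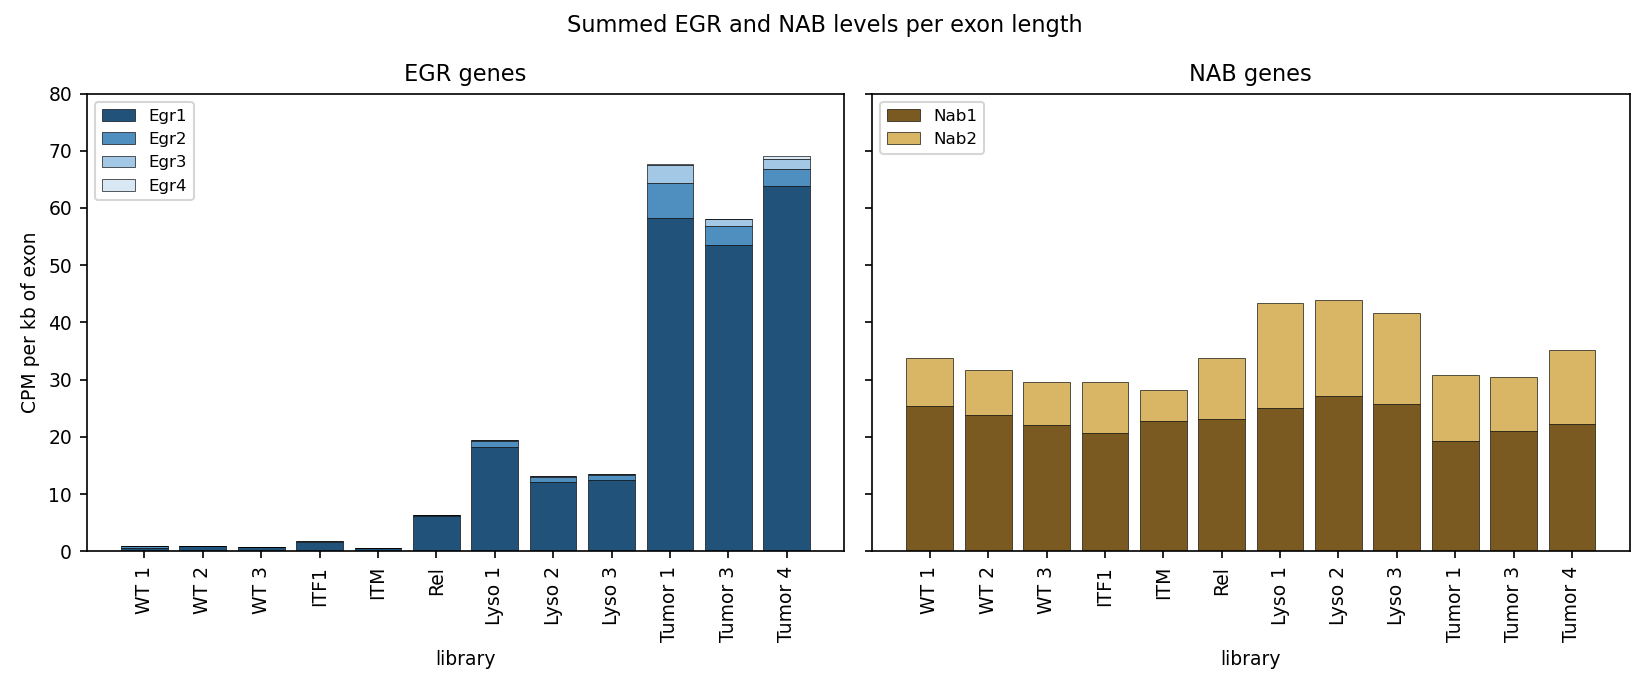
Stacked levels of the EGR genes (left) and NAB genes (right) in each library, in CPM per kb of annotated exon on a linear axis from 0. The EGR stack, nearly all Egr1, is under 1 CPM per kb in the WT libraries and between 58.1 and 69.0 in Tumor. The NAB stack stays between 28.3 and 43.9 CPM per kb in all 12 libraries.

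In the cultured Relapsed lines 0 of the 5 tested members passed against WT, by edgeR or DESeq2, and 1, Egr1, had an unadjusted p under 0.05. The line Rel held 27.4 CPM of Egr1 on 410 counts, 7.998 times the WT mean, ITF1 held 7.60 CPM and ITM 2.46 CPM. ITF1 and Rel stood above all WT libraries and ITM below them, though the lowest WT value, 2.83 CPM in WT 1, rested on 5 counts. Rel was over 2 times every other line and WT library in Egr1, as in 0.838% of all genes. It was the highest line in 5 of 5 tested members, as in 32.3% of all genes. Members read from 1 library are not separate observations. In Nab1 the lead was small, at 94.6 CPM in Rel against 93.6 CPM in ITM. In Egr3 it rested on 3 counts, and the untested Egr4 gave its only count in ITF1. The group difference in Egr1 was 1.88 ± 0.74 on the log2 scale and did not pass (edgeR adjusted p 0.376), where 0.0402% of all genes were called in either direction. It rested on the line Rel, without which it was 0.55 (edgeR adjusted p 0.847), and it passed without ITM (2.39, edgeR adjusted p 0.0373). In Nab2 the lines kept the same order, with 31.7 CPM in Rel, 26.3 in ITF1 and 16.1 in ITM. The EGR to NAB ratio was 0.187 in Rel, 0.0597 in ITF1 and 0.0211 in ITM, and its permutation p against WT was 0.4 (exact, two-sided). Egr2 gave 9 counts in Rel and 1 and 2 in ITF1 and ITM, and Egr3 3, 1 and 1, within the range of WT in CPM. The top of that range for Egr2, 1.13 CPM, was 2 counts in the shallow WT 1, under the floor. In the deep WT 3, Egr2 was at 0.118 CPM on 2 counts, against 0.603 CPM in Rel. Among immediate early genes outside the family, Rel stood above the other lines and all WT libraries in 5 of 26, against 17.8% of all genes. That count is near the share over all genes. Rel was over 2 times all of these libraries in 1 of 26, against 0.838% of all genes. Fos, an AP-1 subunit chosen after its values were seen, reached 37.5 CPM in Rel where WT had 6.33 to 12.5 CPM. With 1 library for each line, these differences between lines have no replicate check.

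Against the Relapsed lines the sorted cells stood higher in Egr1, Egr2 and Egr3, by 4.39 ± 0.59, 5.62 ± 0.58 and 6.10 ± 0.56 on the log2 scale (edgeR adjusted p 0.000195, 2.19e-05 and 7.00e-06). Of all genes tested, 8.36% were called higher in that comparison. Lyso stood above the Relapsed lines in Egr1, Egr2, Egr3 and Nab2, by 2.36, 3.49, 2.64 and 1.02 on the log2 scale (edgeR adjusted p 0.0214, 0.00332, 0.0263 and 0.00866), where 3.21% of genes were called higher. The Relapsed levels of Egr2 and Egr3 rested on 12 and 5 counts. Egr2 passed the expression filter through Lyso and Tumor and Egr3 through Tumor, so their calls there rest partly on the filter. They are given as a description only. Without Rel the log2 difference of Egr1 was 5.73 in Tumor and 3.70 in Lyso, and that of Egr2 6.91 and 4.78. In Lyso against the Relapsed lines the call of Egr1 was lost without ITF1, Lyso 1 or Lyso 3 (largest edgeR adjusted p 0.0926), and that of Egr3 without ITF1, ITM, Lyso 1 or Lyso 3 (largest 0.107). Nab2 went under the fold minimum without ITM (0.78) and without Lyso 1 (0.95), and Egr2 kept its call without each library in turn.

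Other immediate early genes, which answer the same signals as the EGR family, were counted from a list of 27, of which 26 were tested. In Tumor against WT, 24 of 26 were called higher and 0 lower, with a median log2 fold change of 3.19. Over all genes tested 8.56% were called higher. Fosb, an AP-1 subunit, rose from a mean of 3.53 CPM in WT to 1105 CPM, by 8.04 ± 0.42 on the log2 scale (edgeR adjusted p 9.32e-08). Klf4, a zinc-finger regulator of cell state, rose by 5.02 ± 0.24 and Dusp1, a phosphatase that switches off MAP kinases, by 3.40 ± 0.14 (edgeR adjusted p 3.62e-08 and 1.26e-08). Nr4a2, an orphan nuclear receptor, rose by 3.96 and Maff, a small MAF factor, by 3.29 (edgeR adjusted p 7.55e-07 and 5.67e-07).

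In Lyso, of the same 26 genes, 5 were called higher and 1 lower, with a median of 0.39. Over all genes tested 2.43% were called higher and 3% in either direction. DESeq2 called 9 of the listed genes in either direction, and 13 of 26 had an unadjusted edgeR p under 0.05. Of all 14924 genes tested, 2789 had such a p. Zfp36, whose protein destabilises cytokine mRNAs, rose by 2.97 ± 0.35 and Maff by 2.19 ± 0.21 (edgeR adjusted p 0.000473 and 0.000193). Nr4a3 rose by 2.13, Junb by 1.57 and Dusp6, a phosphatase specific for ERK, by 1.58 (edgeR adjusted p 0.0325, 0.00431 and 0.00996). Ccn1, a matricellular target of SRF and YAP, fell by 1.74 on the log2 scale (edgeR adjusted p 0.00347), from a mean of 115 CPM in WT to 35.0 CPM. Fos did not pass, at 37.5 to 41.5 CPM against 6.33 to 12.5 CPM in WT (edgeR adjusted p 0.0573), nor did Fosb, at 1.46 to 1.89 CPM against 2.26 to 4.95 CPM in WT (edgeR adjusted p 0.124). In the Relapsed lines 0 of 26 were called by edgeR, where 6 had an unadjusted p under 0.05, and DESeq2 called 1. Over all genes edgeR called 0.0402% in that comparison, so 0 of 26 is near that share.

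**Figure D4:**
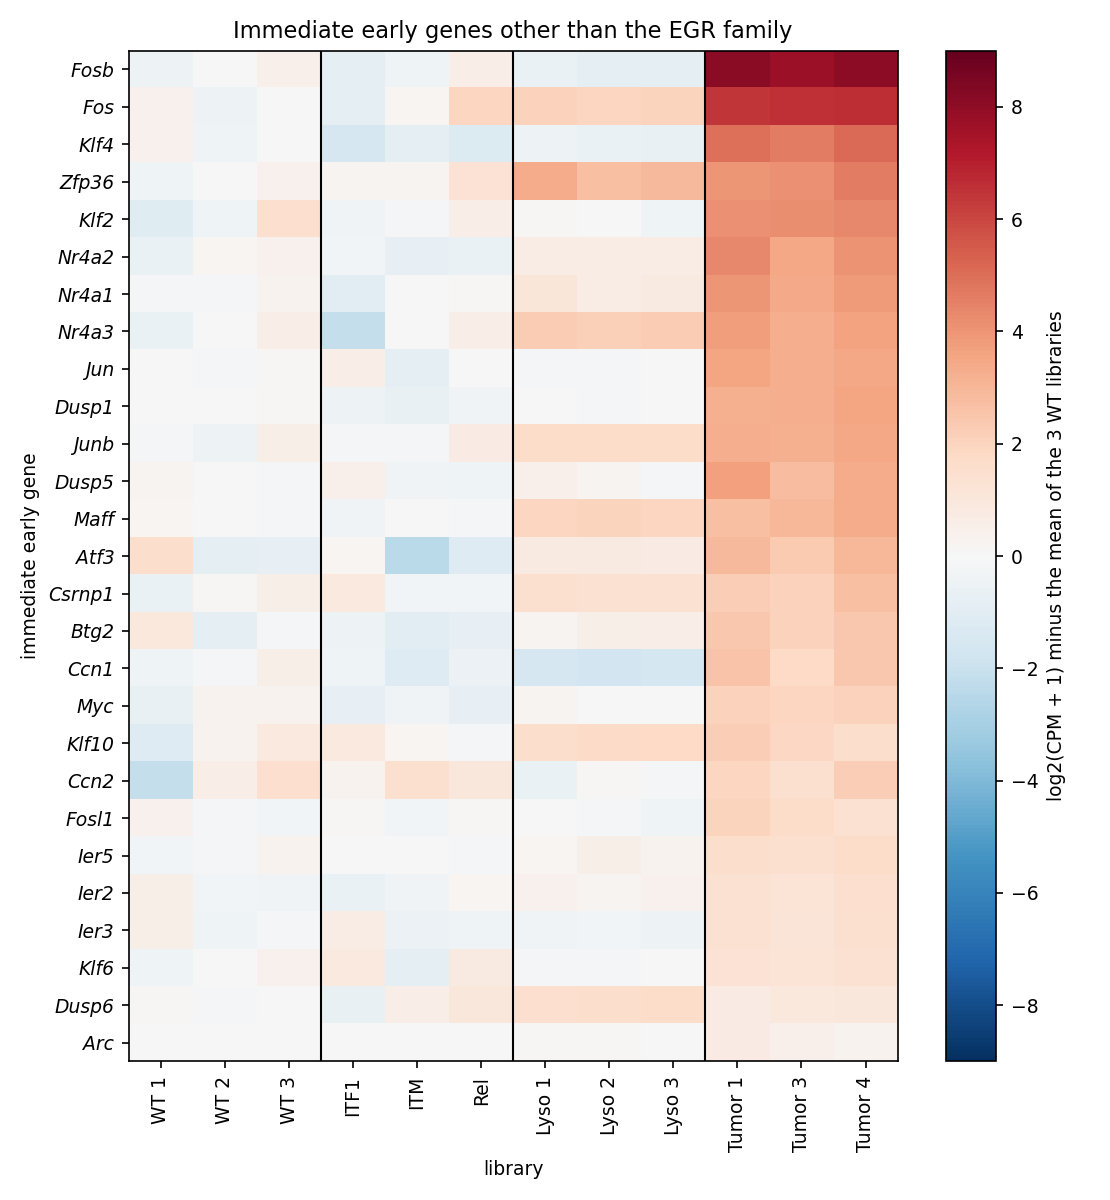
The 27 immediate early genes of the list in each library, as log2(CPM + 1) minus the mean of the 3 WT libraries, ordered by their mean in Tumor. Red is above WT, blue below. The Tumor columns are red in nearly every row, the Lyso columns in some rows such as Zfp36, Maff, Junb and Dusp6, while Ccn1 is blue there.

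Of 14 genes of the route that leads to EGR promoters (RAF, MEK, ERK and RSK kinases, SRF, its partners and CREB), 1 was called. Over all genes tested 10.8% were called in Tumor, 3% in Lyso and 0.0402% in Relapsed against WT. The counts of this list are near those shares. Srf itself rose in Tumor from a mean of 69.2 to 174 CPM, by 1.32 ± 0.13 on the log2 scale (edgeR adjusted p 2.09e-05). In Lyso and the Relapsed lines 0 of 14 were called by edgeR or DESeq2, and 2 and 1 had an unadjusted p under 0.05. The medians of the list were 0.06 in both. These are RNA levels and do not measure kinase activity.

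Genes described as EGR targets elsewhere formed a list of 19, of which 17 were tested. In Tumor 8 were called higher and 0 lower, with a median of 1.961, where 8.56% of all genes tested were called higher. Fn1, which encodes fibronectin, rose by 3.51 ± 0.39 and Plau, the urokinase gene, by 4.44 ± 0.59 (edgeR adjusted p 6.36e-05 and 0.000244). Ptges, a prostaglandin E synthase, rose by 5.75 and the adhesion gene Icam1 by 5.67 (edgeR adjusted p 1.39e-05 and 2.87e-05). Flt1, a VEGF receptor, was at 0 counts in all WT libraries and at 2.59 to 3.90 CPM in Tumor. It was at 0 in Lyso and the Relapsed lines too. It thus passed the filter through Tumor, and its call was nearly fixed. In Lyso, where Egr1 was also higher, 0 of the 17 were called higher and 1 lower. Over all genes 2.43% were called higher and 3% in either direction, so these counts are near that share. The count of targets called in Lyso went to 0 without WT 3 and without each Lyso library. In the Relapsed lines 0 of 17 were called by edgeR or DESeq2, and 3 had an unadjusted p under 0.05. Of 12 NuRD genes, the complex that NAB proteins recruit, 0 were called against WT in any of the 3 groups by edgeR or DESeq2. In Tumor, Lyso and Relapsed 2, 1 and 2 had an unadjusted edgeR p under 0.05. Their medians were -0.0055 in Tumor, -0.0089 in Lyso and 0.0069 in the Relapsed lines. Over all genes tested 10.8%, 3% and 0.0402% were called in these groups. The 0 of 12 NuRD genes and the 0 of 17 targets in Relapsed are thus near the shares over all genes.

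Markers of other cell types were present in the libraries. In bulk RNA, more cells of a type and more RNA per cell cannot be told apart. In Tumor 10 of 10 fibroblast markers were called higher than in WT, with summed levels of 7859 to 10952 CPM, where WT had 30.0 to 39.2 CPM, led by Col3a1 at 3369 to 4938 CPM. Of 8 listed endothelial markers 6 were tested and all 6 were called higher (48.3 to 53.6 CPM summed, against 2.96 to 10.2 CPM in WT). Of 10 listed myeloid markers 6 were tested and 4 were called higher (41.3 to 65.9 CPM summed, against 12.5 to 29.2 CPM). Several markers, such as Col3a1, Kdr and Adgre1, were at or near 0 outside Tumor and passed the expression filter through Tumor. For those a call as higher was nearly fixed by the filter. Over all genes tested 8.56% were called higher. Fibroblasts, endothelial cells and macrophages express immediate early genes and several of the listed targets, Fn1, Icam1 and Flt1 among them. Their part in the Tumor values of the EGR genes was not tested.

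In Lyso the T cell markers summed to 11.3 to 13.7 CPM, against 0 to 0.059 CPM in WT and 0.650 to 4.24 CPM in Tumor. Of 12 listed T cell markers 3 passed the expression filter (Gzmb, Cd8a and Cd8b1), and all 3 were called higher. They were at 0 counts in all WT libraries and passed the filter through Lyso. Their calls were thus nearly fixed by the filter and add little to the levels. Gzmb, a granule protease gene, led with 5.10 to 6.71 CPM. T cells express Egr1, Egr2, Egr3 and Nab2 on activation. The part of T cell RNA in the Lyso values of these genes was not tested. The share of counts on mitochondrial genes was 6.08% to 8.53% in Lyso and 3.75% to 4.39% in WT, and its part was not tested either. Among 9 Schwann cell markers, Mag was at 0 in WT, Lyso and Tumor. Of 11 heat shock genes, Hspa1a alone was called, where 10.8% of all genes tested were called in Tumor and 3% in Lyso. It was higher in Tumor, at 1.95 to 2.42 CPM against 0 to 0.531 CPM in WT. In Lyso it was lower, at 0 counts. The Tumor call was lost without Tumor 3 or Tumor 4, and the Lyso call without any library but WT 1.

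The genes whose log2 CPM followed each member most closely over the 12 libraries are given as a description, since all points share the same 4 groups. Egr1 was closest to Zfp36 (Pearson r 0.979), the complement gene C4b (0.978) and Rasd2 (0.976). Egr2 was closest to the Fc receptor gene Fcgr2b (0.978), Gm26885 (0.971) and C4b (0.967). Egr3 was closest to the ERK-pathway inhibitor Spry2 (0.980), H2-Q5 (0.977) and Ly6a (0.976). Nab1 was closest to Ccnj, a cyclin gene (0.931), and to 2 genes named by clone, 9530082P21Rik (0.929) and 6530402F18Rik (0.920). Nab2 followed genes that were highest in Lyso, Clec2d (0.958), Cd274 (0.941), which encodes the checkpoint ligand PD-L1, and Vwa5a (0.935). Cd274 was at 186 to 189 CPM in Lyso, 24.4 to 74.9 CPM in Tumor and 4.53 to 8.37 CPM in WT. Within the family, Egr1 and Egr2 gave r = 0.917, Egr1 and Egr3 0.909, Egr1 and Nab2 0.700 and Egr1 and Nab1 -0.212, all over the same 12 libraries.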

How the data were processed

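The authors trimmed reads with fastp 0.19.6, aligned them to GRCm38 with STAR 2.7.1a and deposited raw counts per gene, without normalization, and the submitters' processing notes also name DESeq2 1.24.0. Neither the annotation release nor a strand setting for counting was given in the sources used here. Between 36.2% and 39.4% of reads fell on genes and 43.5% to 44.8% on no feature. Rows without a gene were left out of library sizes. Symbols, positions and exon lengths came from GENCODE M21, which held 54165 of the 54232 identifiers. Counts were tested with edgeR 4.0.16 in R 4.3.3 (TMM, filterByExpr by group, glmQLFit and glmQLFTest, all 12 libraries in 1 fit), and each standard error is the size of the fitted log2 change divided by the root of its F statistic, with 95% intervals from the t distribution on edgeR's degrees of freedom. Summaries, permutation tests and counting intervals used Python 3.11.15. On simulated counts for Tumor against WT, edgeR recovered 189 of 200 changed genes among 14524 and called 2 others. The changed genes had an expected count over 3 in the shallowest library, and all genes shared 1 dispersion. The simulation therefore does not cover genes as low in WT as Egr2, Egr3 and Egr4.

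Members and gene lists were chosen with earlier results of these data known. Named genes are the 6 members, up to 5 called genes of each list in each direction by smallest p, the 3 genes most like each member, overlapping genes and the leading or absent markers. Fos, and Fosb in Lyso, fall outside that rule and were chosen after their values were seen. Values of some listed genes are not reported here. The alternatives were DESeq2 1.42.0, RLE factors, library size alone, no filter and a minimum of 10 counts in every library, only the compared groups, the adjusted p alone, glmTreat, WT libraries of similar depth, thinning to the shallowest library, a replicate block, each library left out, and transcript length.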

Additional observations from a re-analysis of the deposited data

How the results depend on the processing

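Depth limits Egr2, Egr3 and Egr4, whose WT levels rest on 4, 4 and 0 counts, and WT 1 and WT 2 are the shallowest libraries. Of the fold changes of the 5 tested members over 6 comparisons, 418 kept direction and side of the threshold under the alternatives, 27 lost and 3 gained a call and 8 changed sign, all 8 where no call was made. Where every library had to hold 10 counts or more, members called were 0 in Tumor against WT, 1 in Lyso against WT, 1 in Tumor against Relapsed and 2 in Lyso against Relapsed, since Egr2 and Egr3 (and Egr1 where WT was compared) leave the table. With glmTreat members called were 1 in Lyso against WT, 1 in Tumor against Lyso and 1 in Lyso against Relapsed. With WT 3 as the only control, 1 member was called in Lyso, as the edgeR adjusted p of Egr1 became 0.0741 and that of Nab2 0.0938. After thinning, that of Egr2 was 0.0948. Fitting only the compared groups left 2 members in Lyso against Relapsed. Without the filter, 1 member (Egr1) was called in Relapsed against WT, and 4 (Egr4 added) in Tumor against WT, Lyso and Relapsed. Over fits that leave out 1 library, members called were 3 in every fit of Tumor against WT or Relapsed, 1 to 3 in Lyso against WT, 2 to 3 in Tumor against Lyso, 1 to 4 in Lyso against Relapsed and 0 to 1 in Relapsed against WT.

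Signs turned in Relapsed against WT for Egr2 after thinning (-2.62) and leaving out libraries (-0.91 to 1.29), for Egr3 when leaving out libraries (-1.26 to 3.12), for Nab1 against WT 3 alone (0.0044) and for Nab2 after thinning (-0.16) and leaving out libraries (-0.12 to 0.34), and in Tumor against Relapsed for Nab1 after thinning (0.018). Listed genes called moved with glmTreat to 0 upstream and 5 target genes in Tumor and to 2 immediate early and 0 target genes in Lyso, with the adjusted p alone to 2 upstream and 1 NuRD genes in Tumor and 1 NuRD gene in Lyso, and without the filter to 12 immediate early and 4 target genes in Lyso and 1 and 3 in Relapsed. At 10 counts, 2 target genes were called in Tumor and 0 in Lyso, and thinning left 0 in Lyso. DESeq2 called 1 immediate early gene in Relapsed. Leaving out libraries gave 6 to 12 target genes in Tumor, 0 to 2 in Lyso and 0 to 1 immediate early genes in Relapsed. The heat shock call went to 0 in Tumor with DESeq2, and in Lyso with WT 3 alone or after thinning, and in both at 10 counts, with only the compared groups, with glmTreat and in fits that leave out a library (0 to 1). The cause was not tested.

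The replicate numbers shared by WT, Lyso and Tumor do not pair the libraries (correlations of deviations -0.008 to 0.065). The replicate block kept 3 members called in Tumor against WT, 3 in Lyso against WT and 3 in Tumor against Lyso, and left 0 target genes in Lyso and 0 heat shock genes in Lyso and Tumor. It changed no other call of the members.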
